A study of Mus musculus with 48 samples.

Results

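Fibroblastic reticular cells (FRCs) and blood endothelial cells (BECs) from skin-draining lymph nodes (LNs) of naive mice were compared with Illumina mouse expression arrays. On these, every gene is read by many small beads that carry its probe, and the brightness of the beads after hybridization gives the level of its RNA. The samples were chosen by their labels alone, namely a naive state and an FRC or BEC origin. This gave 12 of the 48 array strips of the series, or 6 of its 24 biological replicates, because each replicate was read on 2 strips that were averaged here. The comparison is therefore one of 3 FRC against 3 BEC replicates, and the remaining strips hold lymphatic endothelial cells (LECs) and double-negative (DN) cells of naive mice and all 4 cell types of mice given Eu-Myc lymphoma B cells.

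Both groups came from Wt control animals that had received no tumor cells, and the labels give no strain, age or sex. The nodes were cervical, axillary, brachial and inguinal. They were digested with Dispase II, Collagenase P and DNase1, leukocytes were depleted with CD45 beads, and live cells negative for CD45 and Ter119 were sorted. FRCs were taken as gp38+ CD31- and BECs as CD31+ gp38-, where gp38 is podoplanin and CD31 is PECAM1, so the genes of these 2 proteins were used by the sort and are no finding here. The submitters give a purity above 95%. RNA of 4 to 6 sorts was combined to reach the 80 ng that went onto an array. A replicate is thus a pool, the labels do not say whether the pools share animals, and p-values measure only the spread between pools, which may be technical. All FRC arrays lay on 1 slide and all BEC arrays on another, so cell type and slide cannot be told apart. On both slides the naive replicates 1, 2 and 3 took places A, B and C.

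FRCs are the fibroblasts of the LN. They lay down the collagen-rich reticular fibers and conduits, wrap them, and secrete the chemokines and survival factors that guide and feed lymphocytes. BECs line the blood vessels of the node, including the high endothelial venules (HEVs), where naive lymphocytes leave the blood by binding sulfated sugars on endothelial mucins through L-selectin. The comparison addresses which genes set these neighboring stromal cells apart in the resting node.

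Marker genes placed every array with its label, but each cell type also carried a low signal of the other. Values are log2 signals, quantile normalized over all strips, and differences are FRC minus BEC on the log2 scale. *Col1a1*, which encodes a chain of collagen-I (chromosome 11, 94936224 to 94953042 of GRCm38), had levels of 14.66, 14.54 and 14.41 in FRC replicates 1, 2 and 3 and of 5.26, 7.89 and 6.07 in the BEC replicates. *Pecam1* (chromosome 11, 106654213 to 106715281) had 8.76, 5.81 and 7.35 in FRCs and 14.48, 14.44 and 14.88 in BECs. Each is thus far apart between the groups, and the highest *Col1a1* level among BECs was in replicate 2, while the lowest *Pecam1* level among FRCs was in replicate 2. *Glycam1* (chromosome 15, 103562759 to 103565081), which encodes an HEV mucin that L-selectin binds, had 12.76, 11.97 and 12.48 in FRCs and 15.69, 15.26 and 15.76 in BECs. This gene was lower in every FRC replicate but well above the background level of 5.57 there, whereas *Chst4*, the HEV sulfotransferase, had 4.85, 5.11 and 5.0 in FRCs, all below that level, and 10.98, 8.95 and 11.18 in BECs. Of 20 fibroblast markers, 17 were higher in FRCs and none in BECs, where higher means a called difference as defined with the counts over all genes. *Pdpn*, the gp38 gene by which FRCs were sorted, had 14.31, 14.41 and 14.49 in FRCs and 8.58, 9.18 and 8.68 in BECs. *Pdgfra*, a receptor of mesenchymal cells, and *Cdh5*, the junction cadherin of endothelium, were as clearly placed, with *Pdgfra* at 14.22 ± 0.22 in FRCs and 7.38 ± 0.71 in BECs and *Cdh5* at 7.61 ± 1.29 and 14.03 ± 0.17 (SD, n = 3 each). The probe for *Kdr*, a VEGF receptor of endothelium, lay close to background in both, at 5.61 ± 0.12 in FRCs and 6.0 ± 0.12 in BECs (SD, n = 3 each), and *Kdr* was not called.

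**Figure D1:**
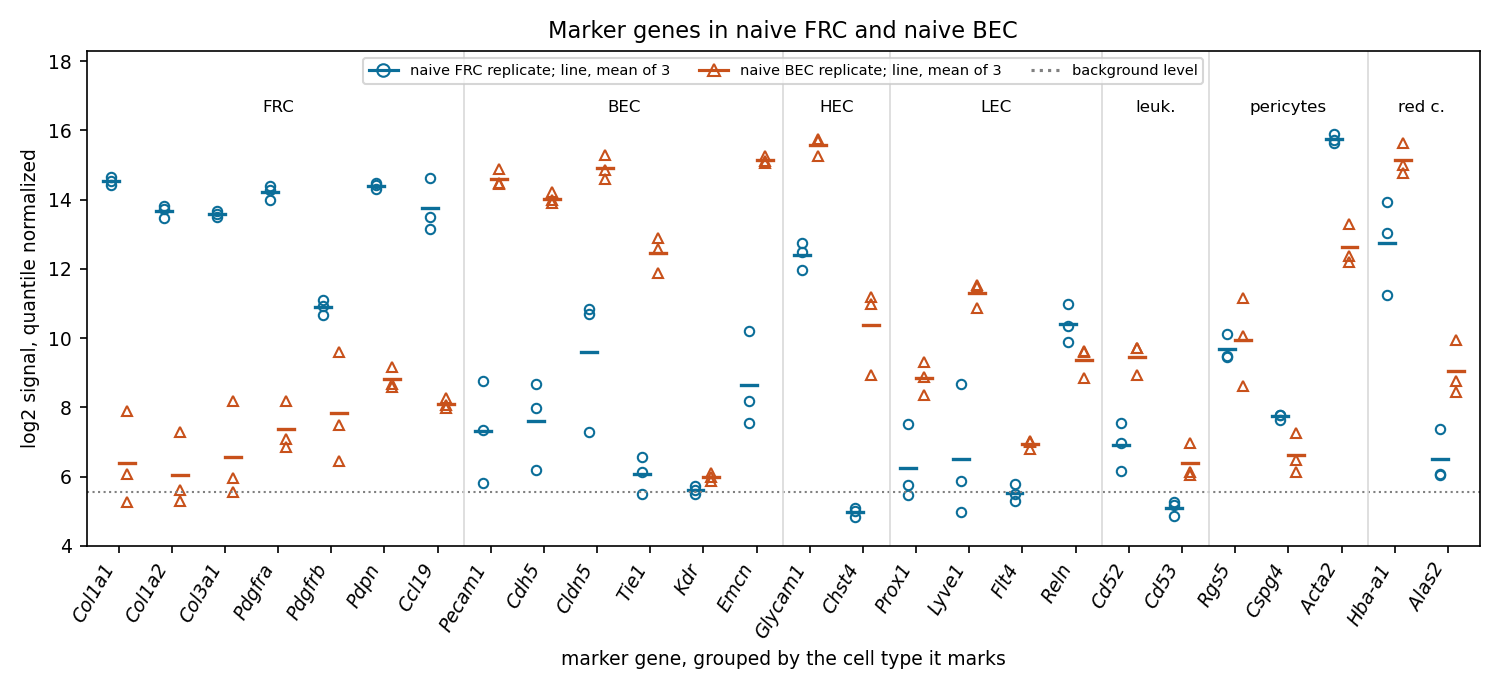
Log2 signal of the marker genes (vertical axis) in the 3 naive FRC replicates (circles) and the 3 naive BEC replicates (triangles), with group means as short lines and the background level of 5.57 dotted. The replicates of FRCs and BECs do not overlap for any FRC, BEC or HEV marker shown, although *Kdr* stays near the dotted line in both, and most endothelial markers scatter more among FRCs than among BECs.

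Signal of other cell types differed between replicates. Over the 100 genes that were most BEC-high, the median level was 6.79, 5.71 and 6.46 in FRC replicates 1, 2 and 3. Over the 100 most FRC-high genes it was 5.50, 6.49 and 5.62 in BEC replicates 1, 2 and 3. FRC replicate 1 and BEC replicate 2 thus held the most signal of the other cell type. BEC replicate 2 was also the one with the highest *Rgs5*, a pericyte gene, at 11.16 against 8.63 and 10.07. LEC genes were present in BECs, with the lymphatic regulator *Prox1* at 9.32, 8.89 and 8.36 and the hyaluronan receptor *Lyve1* at 11.53, 11.49 and 10.87, compared with means of 13.27 and 14.29 in naive LECs. Among FRC replicates 1, 2 and 3 both were highest in replicate 3, with *Prox1* at 5.77, 5.47 and 7.53 and *Lyve1* at 5.87, 4.99 and 8.68. The median over the list of LEC markers was 6.45, 6.79 and 8.68 there. Of 17 LEC markers, 10 were higher in BECs, among them the scavenger receptors *Marco* (12.2-fold), *Stab1* (10.1-fold) and *Stab2* (8.04-fold), and 4 in FRCs, namely *Pdpn*, *Thy1* (20.6-fold), *Fgl2* (11.1-fold) and *Itga2b* (2.66-fold). The 10 include *Glycam1* and *Madcam1*, which are counted with the HEV genes too, and *Glycam1* had a higher mean in BECs (15.57) than in LECs (14.93). The probes of *Stab1* disagreed, with differences from -4.61 to 2.01. Among leukocyte markers, *Cd52* had 6.91 ± 0.70 in FRCs and 9.47 ± 0.45 in BECs, and *Ptprc* had no group mean above background. Among red cell markers, *Hba-a1* had 12.73 ± 1.36 and 15.14 ± 0.45 and *Alas2* 6.50 ± 0.75 and 9.05 ± 0.80 (SD, n = 3 each). The part of these signals in any result was not tested beyond leaving replicates out. In sorted bulk samples, fewer cells of a type and less RNA per cell cannot be told apart. *Itga2b* was not called without FRC replicate 1, 2 or 3 or BEC replicate 1 or 3, at a difference of 1.10 to 1.51 (adjusted p = 0.0716 to 0.188 in limma). *Cd52* was not called when any 1 of the 6 replicates was left out, at a difference of -2.89 to -2.19 (adjusted p = 0.0539 to 0.144 in limma). *Hba-a1* was not called without FRC replicate 2, at a difference of -1.66 (adjusted p = 0.0655 in limma). *Alas2* was not called without BEC replicate 1, at a difference of -2.10 (adjusted p = 0.0543 in limma).

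FRCs and BECs differed over a large part of the measured genes. Of 13353 genes tested, 1826 (13.7%) were higher in FRCs and 1490 (11.2%) higher in BECs, where a call needs a Benjamini-Hochberg adjusted p under 0.05 in limma, adjusted over all genes, and a difference of at least 1 on the log2 scale, which is 2-fold. These shares are the background against which each gene group below is read. The median difference over all genes was -0.04, and the quartiles were -0.46 and 0.46. The replicates of both groups did not overlap for 7526 genes (56.4%). Differences of at least 4 (16-fold) were found for 484 genes, of which 325 were higher in FRCs and 159 in BECs. For 339 of the FRC calls no BEC replicate, and for 145 of the BEC calls no FRC replicate, lay above background. For a further 158 FRC calls and 81 BEC calls the mean of the other group lay below it with 1 or 2 replicates above. Folds of all such genes are given as lower bounds, with each replicate below background set at that level, and genes are ordered by the log2 difference as measured. Replicates of 1 cell type correlated at 0.984 to 0.994 (FRCs) and 0.973 to 0.992 (BECs) over genes, and FRC with BEC replicates at 0.816 to 0.867. Without both FRC replicate 1 and BEC replicate 2, 1804 genes were higher in FRCs and 1446 in BECs.

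**Figure D2:**
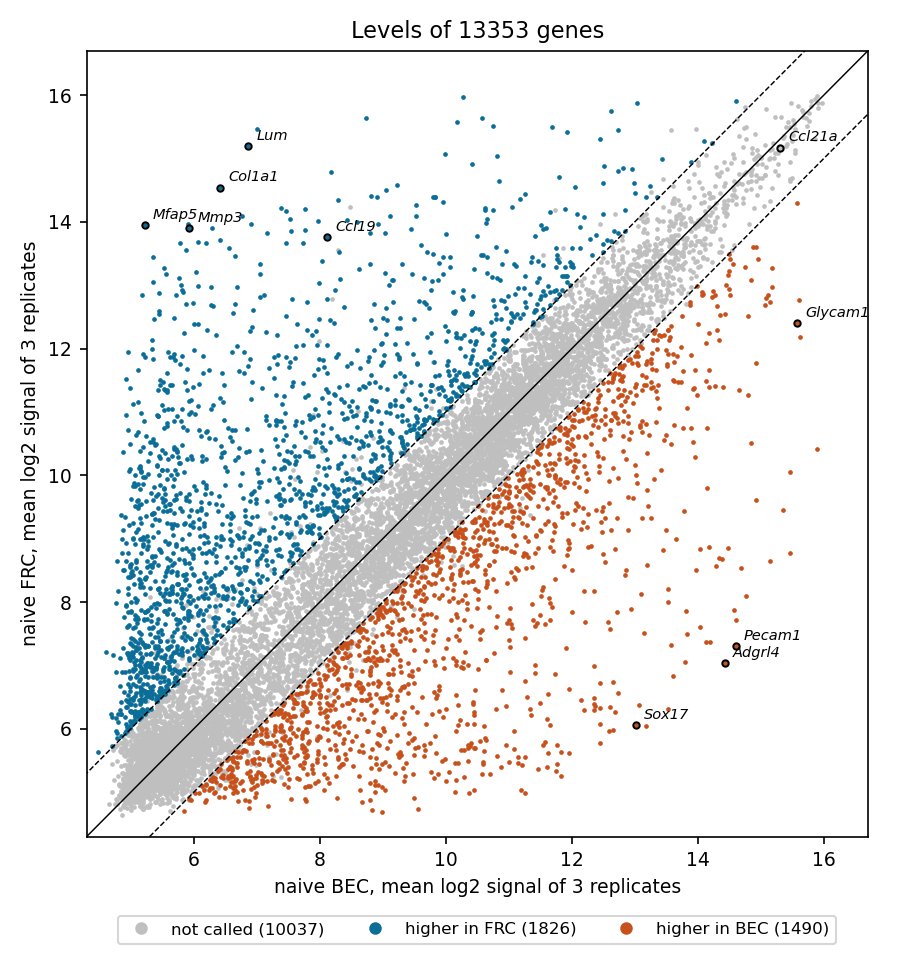
Mean log2 signal of 3 naive BEC replicates (horizontal) against that of 3 naive FRC replicates (vertical) for each of the 13353 genes tested, with genes higher in FRCs in blue, genes higher in BECs in orange and uncalled genes in gray. The solid line marks equal levels and the dashed lines a 2-fold difference, and the 325 genes higher by 16-fold or more in FRCs outnumber the 159 higher by that much in BECs.

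The 15 genes with the largest measured differences toward FRCs included several of the extracellular matrix. *Mfap5*, a protein of elastic microfibrils, had 14.04, 14.15 and 13.67 in FRCs and 5.01, 5.96 and 4.69 in BECs, at least 305-fold higher in FRCs (log2 8.74, SE 0.57, adjusted p = 5.51e-10 in limma). *Loxl1*, an oxidase that cross-links elastin, came next in measured difference with 352-fold and *Lum*, the small proteoglycan lumican, with 321-fold. Then came *Col1a1* at 280.4-fold, the membrane dipeptidase *Dpep1* with at least 204-fold, the IGF-binding protein *Igfbp6* at 265-fold and *Mmp3*, the metallopeptidase stromelysin-1, at 252-fold. The actin-severing protein gelsolin (*Gsn*, 236-fold), the chemokine *Cxcl14* (at least 177-fold), the pattern recognition molecule *Ptx3* (at least 152-fold) and the hyaluronan synthase *Has1* (207-fold) were next, before the interferon-inducible *Ifi205* (at least 147-fold), *Lrrc15* (at least 157-fold), the small proteoglycan *Ogn* (196-fold) and the collagen-I chain *Col1a2* (196-fold). In all of these 15 genes the highest BEC level was that of BEC replicate 2.

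Toward BECs, the 15 leading genes included surface receptors and transcription factors of endothelium. *Adgrl4*, an adhesion G protein-coupled receptor of endothelium, had 8.83, 5.61 and 6.67 in FRCs and 14.33, 14.58 and 14.38 in BECs, 168-fold higher in BECs (log2 -7.39, SE 0.67, adjusted p = 3.05e-08 in limma). Besides *Pecam1*, which the sort used, the list held the protocadherin *Pcdh17* (148-fold), the membrane-bound carbonic anhydrase *Car4* (140.3-fold), the arterial transcription factor *Sox17* (125-fold), the retinoid-binding protein *Rbp7* (118-fold) and *Cd300lg* (114-fold). *Arhgef15* was 109-fold and *Gpihbp1*, the carrier of lipoprotein lipase on capillaries, 109-fold higher. *Sox7* (107-fold), the surface lectin-like *Cd93* (104-fold), *Grrp1* (103-fold), the guidance receptor *Robo4* (102-fold), *Depp1* (102-fold) and the apelin receptor *Aplnr* (102-fold) completed the 15. In all of these genes the highest FRC level was that of FRC replicate 1, and in 14 of them the lowest was that of FRC replicate 2. For *Robo4*, another probe of the gene differed by -0.66 only.

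Interstitial collagens were mostly FRC-high. Of 11 fibrillar collagen chains tested, 8 were higher in FRCs and none in BECs, with a median difference of 4.29 against -0.04 over all genes. *Col3a1* was 131-fold higher, with 13.66, 13.60 and 13.51 in FRCs and 5.55, 8.18 and 5.96 in BECs. The collagen-V chains *Col5a1* (33.8-fold), *Col5a2* (at least 25.9-fold) and *Col5a3* (19.6-fold), which nucleate collagen-I fibrils, were also higher, as were *Col27a1* (at least 10.9-fold) and *Col24a1* (at least 2.2-fold). The cartilage chains *Col2a1*, *Col11a1* and *Col11a2* stayed near background in both cell types and were not called.

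Basement membrane collagens split by chain. The common collagen-IV chains *Col4a1* and *Col4a2*, which every vessel wall contains, were not called: *Col4a1* had 15.37, 15.40 and 15.34 in FRCs and 15.49, 15.64 and 15.41 in BECs (log2 -0.15, SE 0.21, adjusted p = 0.647 in limma), and *Col4a2* differed by -0.33 (adjusted p = 0.302). Both lie high on the scale of the arrays, on which 44 genes had means above 15 in FRCs and in BECs. The less common chains were higher in FRCs, with *Col4a5* at 22.7-fold, *Col4a4* at 5.66-fold, *Col4a3* at 2.55-fold and *Col4a6* higher by at least 3.1-fold. *Col7a1*, the anchoring fibril collagen, was 21.5-fold higher in FRCs and *Col18a1*, the source of endostatin, 4.22-fold, whereas *Col15a1* differed by 0.63 (adjusted p = 0.391). Counted together, 6 of 9 were higher in FRCs and none in BECs.

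Among the other collagens, 10 of 17 were higher in FRCs and 2 in BECs. Collagen-VI chains *Col6a1* (26.9-fold) and *Col6a2* (61.1-fold) form beaded microfibrils, and the fibril-associated *Col14a1* (122-fold) and *Col16a1* (31.3-fold) decorate fibrils. *Col17a1* (41.6-fold) and *Col26a1* (at least 23.2-fold) went the same way. *Col17a1*, like *Col7a1* and *Lamb3* of the basement membrane, is known from basal epithelium, and epithelial markers were higher in FRCs too (7 of 9 epithelial and Schwann cell markers, with *Krt14* at 14.63, 14.83 and 14.90 in FRCs and 7.18, 10.39 and 6.96 in BECs), and their part in the values of these 3 genes was not tested. The exceptions were *Col8a1*, a short-chain collagen of vessel walls, with 7.23, 6.79 and 6.84 in FRCs and 10.25, 10.90 and 10.36 in BECs, and the transmembrane *Col13a1*, which was 6.35-fold higher in BECs.

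The laminins showed a similar split. Of 13 laminin, nidogen, perlecan and agrin genes, 6 were higher in FRCs and 1 in BECs. *Lama2* (83.3-fold), *Lamb3* (44-fold), *Lamc3* (42.5-fold) and *Lama1* (at least 9.17-fold) were higher in FRCs, as were *Lamb1* (2.86-fold) and the linker nidogen-1 (*Nid1*, 3.57-fold). *Lama5*, a laminin chain of vessels, was the 1 member higher in BECs (log2 -1.96, SE 0.32, adjusted p = 5.21e-05 in limma). It had 9.06, 9.27 and 10.22 in FRCs against 11.15, 11.65 and 11.62 in BECs. *Lama4* was tested too and was not called. Perlecan (*Hspg2*) had nearly equal means, 14.78 ± 0.03 in FRCs and 14.76 ± 0.07 in BECs (SD, n = 3 each).

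Small proteoglycans, many of which bind collagen fibrils, were counted with versican and related genes and were mostly FRC-high. Of 16 tested, 11 were higher in FRCs and 3 in BECs, with a median difference of 3.03. Besides *Lum* and *Ogn* these were *Podn* (at least 19.7-fold), *Fmod* (19.6-fold), *Kera* (at least 7.66-fold), *Dcn* (11.3-fold), *Omd* (at least 7.09-fold), *Vcan* (at least 7.51-fold), *Bgn* (6.61-fold), *Prelp* (5.67-fold) and *Spock2* (5.35-fold). The 3 members that were higher in BECs were *Esm1*, *Srgn* and *Hapln3*. *Esm1*, the endothelial proteoglycan endocan and a tip cell marker, had 9.40, 7.64 and 8.68 in FRCs and 14.32, 14.41 and 14.13 in BECs. *Srgn*, the granule proteoglycan serglycin, was 13.7-fold and the hyaluronan link protein *Hapln3* 2.53-fold higher in BECs.

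Elastic fiber genes gave 10 of 16 higher in FRCs and 2 in BECs. *Fbln1* (158-fold), *Emilin2* (134-fold), *Mfap4* (at least 83.3-fold), *Mfap2* (10.1-fold) and *Ltbp3* (9.27-fold) came after *Mfap5*, and elastin itself (*Eln*) was 4.56-fold higher. Multimerin-2 (*Mmrn2*), an endothelial matrix protein, went against them, with 9.93, 6.82 and 8.89 in FRCs and 14.64, 14.72 and 14.68 in BECs, and *Mmrn1*, a LEC gene too, was 12.5-fold higher in BECs. Of 18 matricellular proteins, which modulate cell contact with the matrix, 10 were higher in FRCs, led by tenascin-X (*Tnxb*, 66.4-fold), *Thbs3* (at least 60.8-fold), fibronectin (*Fn1*, 44-fold), *Ccn4* (38.2-fold), *Thbs2* (23.7-fold) and *Ccn5* (at least 14.2-fold). *Comp* (3.28-fold) and *Sparcl1* (3.17-fold) were higher in BECs. *Ccn1* and *Ccn2*, targets of the mechanical sensor YAP, differed by 0.06 and 0.26 and were not called (adjusted p = 0.901 and 0.496). *Sparcl1* was not called without FRC replicate 1 or 3 or BEC replicate 1 or 2, at a difference of -1.74 to -1.39 (adjusted p = 0.0518 to 0.108 in limma).

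Enzymes that build and cut matrix were also more often FRC-high than BEC-high. Of 24 collagen processing genes, 12 were higher in FRCs and 2 in BECs. *Pcolce2* (at least 123-fold), an enhancer of procollagen cleavage, *Lox* (37.1-fold), the main collagen cross-linking oxidase, and *P3h3* (15.4-fold), a prolyl hydroxylase, led after *Loxl1*, followed by *Pcolce* (11-fold) and *P3h1* (6.06-fold). The general secretory chaperones *P4hb* and *Ppib* differed by 0.58 and 0.56 (adjusted p = 0.00205 and 0.000961), below the 2-fold needed for a call. *Tll1*, a tolloid-like protease, and the collagen galactosyltransferase *Colgalt2* were higher in BECs by at least 5.94-fold and 6.15-fold. Of 19 matrix metallopeptidases and inhibitors, 9 were higher in FRCs, among them gelatinase A (*Mmp2*, 121-fold), *Mmp23* (84-fold), *Mmp16* (at least 7.14-fold), the MMP inhibitors *Timp1* (7.51-fold) and *Timp2* (5.16-fold) and the membrane inhibitor *Reck* (8.21-fold). The inhibitors divided between the cell types, since *Timp4* was at least 45.8-fold higher in BECs (5.66, 5.08 and 5.64 in FRCs, with a mean below background, and 10.71, 11.97 and 10.74 in BECs) and *Timp3* 2.14-fold. Gelatinase B (*Mmp9*) had 7.21, 7.45 and 9.04 in FRCs and 6.41, 6.56 and 6.11 in BECs and did not pass (log2 1.54, SE 0.68, adjusted p = 0.0818 in limma). *Timp3* was not called without FRC replicate 3, at a difference of -0.99 (adjusted p = 0.00503 in limma).

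**Figure D3:**
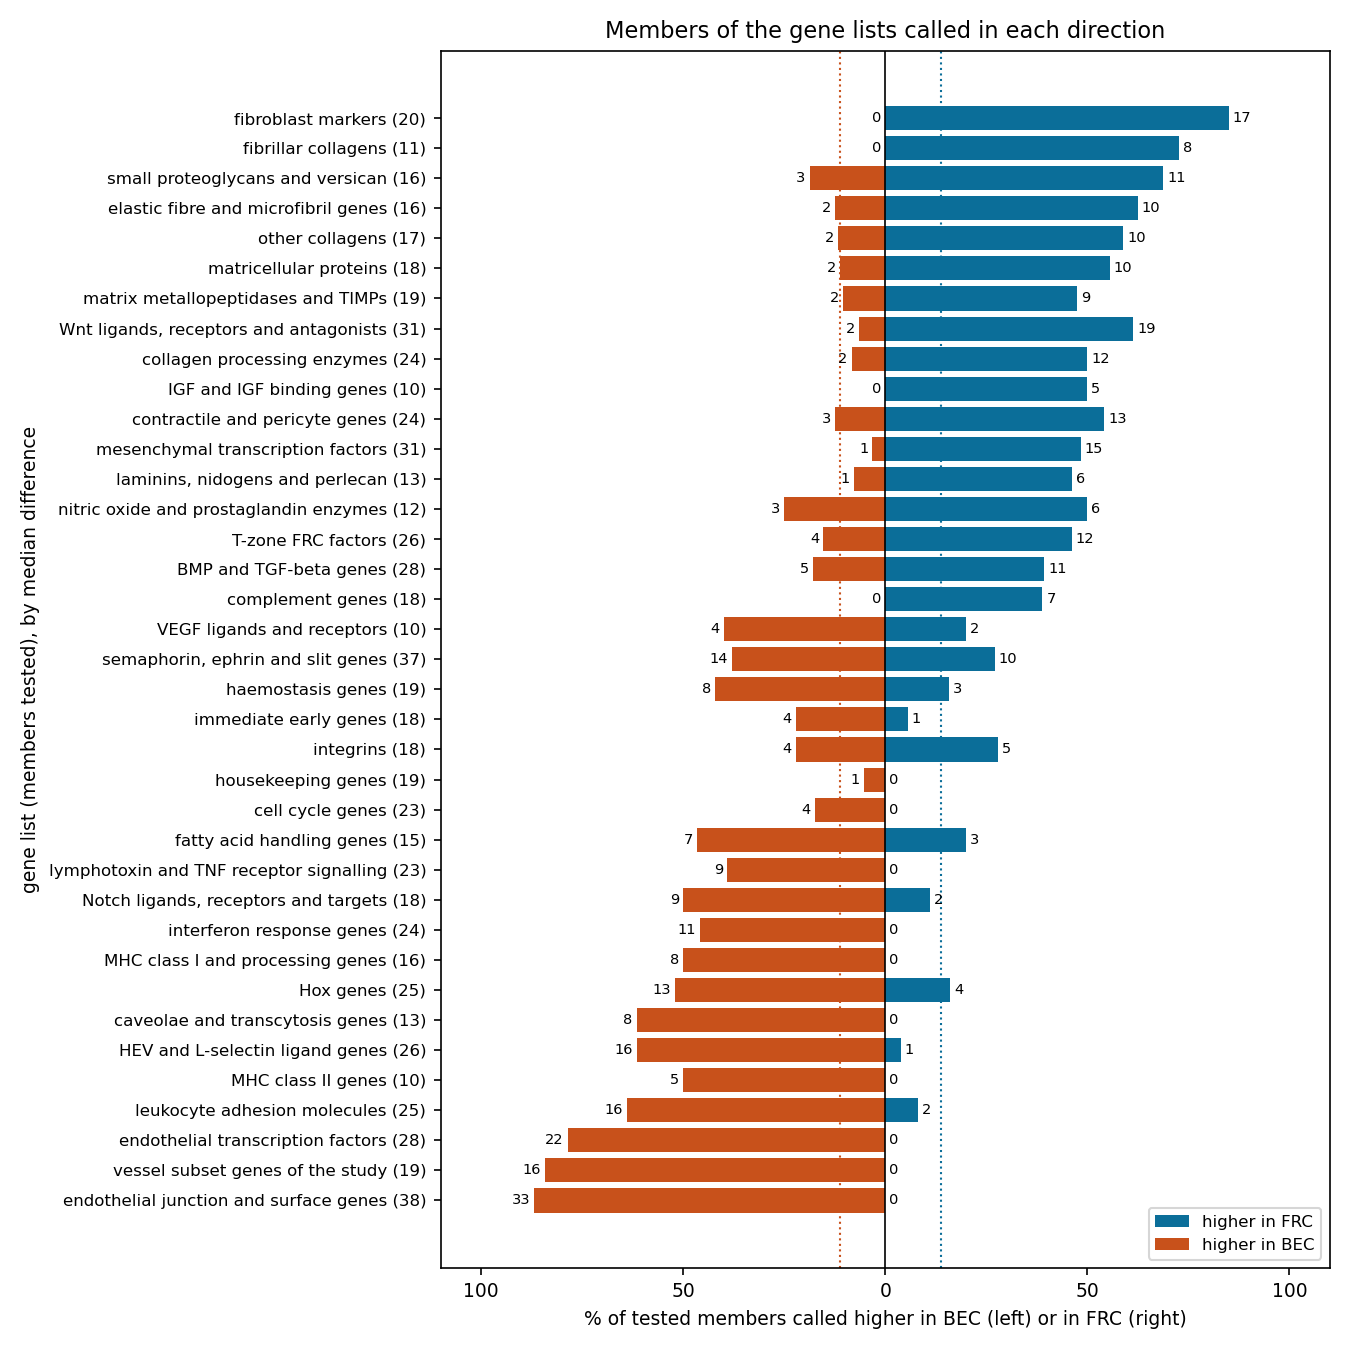
Share of the tested members of each gene list called higher in naive BECs (orange, to the left) or in naive FRCs (blue, to the right), with the number of members called at each bar end, for lists with 10 or more tested members that do not mark other cell types, ordered by median difference. Dotted lines mark the shares over all 13353 genes, 11.2% to the left and 13.7% to the right, with the fibroblast markers at the top and the endothelial junction and surface genes at the bottom.

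The factors listed for FRCs of the T cell zone were only in part FRC-high. The list holds lymphocyte chemokines and survival factors, but also monocyte and macrophage factors, BMP genes and the receptor *Ltbr*. Of 26 tested, 12 were higher in FRCs and 4 in BECs, with a median difference of 0.81. *Ccl19*, the T cell zone chemokine, had 13.14, 13.50 and 14.63 in FRCs and 7.99, 8.26 and 8.08 in BECs, a 50.3-fold difference (log2 5.65, SE 0.86, adjusted p = 2.1e-05 in limma). Its partner *Ccl21a*, which signals through the same receptor, had 14.74, 14.92 and 15.86 in FRCs and 15.60, 14.57 and 15.74 in BECs (log2 -0.13, SE 0.93, adjusted p = 0.934). The replicates of both cell types overlapped, and the mouse genome holds near-identical copies of this gene whose RNA the probe may also bind.

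BAFF and *Cxcl13*, which act on B cells, were among the FRC-high genes. The survival cytokine BAFF (*Tnfsf13b*) was 61.7-fold higher in FRCs, with 12.33, 12.62 and 12.74 in FRCs and 6.51, 6.70 and 6.64 in BECs, and the follicular chemokine *Cxcl13* was 24.6-fold higher, with 12.82, 12.99 and 13.95 and 8.88, 8.63 and 8.39. *Il7*, the survival factor of naive T cells, was 6.35-fold higher in FRCs and the alarmin *Il33* 5.93-fold. Monocyte chemokines *Ccl7* (37.3-fold) and *Ccl2* (7.29-fold), the BMP antagonist *Grem1* (at least 17.5-fold), *Gdf10* (12.1-fold), the macrophage factor *Il34* (10.1-fold), RANKL (*Tnfsf11*, 5.61-fold) and *Cxcl16* (2.93-fold) were higher too. RANKL, a mark of marginal reticular cells, was spread among FRC replicates, at 7.06, 8.0 and 9.34 in FRCs and 5.52, 5.64 and 5.78 in BECs. *Il7* was not called when any 1 of the 6 replicates was left out, at a difference of 2.35 to 2.84 (adjusted p = 0.0558 to 0.104 in limma). *Tnfsf11* was not called without FRC replicate 3, at a difference of 1.88 (adjusted p = 0.0716 in limma).

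Going the other way, the oxysterol-producing enzyme *Ch25h*, which helps place B cells and dendritic cells, had 10.07, 10.08 and 10.73 in FRCs and 14.56, 12.77 and 14.50 in BECs, 12.6-fold higher in BECs. Stem cell factor (*Kitl*) was 4.74-fold, the interferon-induced chemokine *Cxcl9* 3.58-fold and *Il15* 2.83-fold higher in BECs. *Ltb*, the membrane-bound lymphotoxin chain, was 2.7-fold higher in BECs (6.79, 6.71 and 7.41 in FRCs and 8.83, 7.98 and 8.38 in BECs). *Cxcl12*, the CXCR4 ligand, differed by -0.65 (adjusted p = 0.491) and the lymphotoxin receptor *Ltbr* by -0.20 (adjusted p = 0.537), and neither was called. *Cxcl9* was not called without FRC replicate 2 or BEC replicate 2, at a difference of -1.75 to -1.60 (adjusted p = 0.056 to 0.0709 in limma). *Ltb* was not called without FRC replicate 1 or 2 or BEC replicate 1 or 3, at a difference of -1.44 to -1.21 (adjusted p = 0.0828 to 0.136 in limma).

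Contractile and pericyte genes were more often FRC-high than BEC-high. Of 24 tested, 13 were higher in FRCs and 3 in BECs (1 without both FRC replicate 1 and BEC replicate 2). Smooth muscle actin (*Acta2*) had 15.64, 15.71 and 15.90 in FRCs and 12.21, 13.29 and 12.38 in BECs, 8.73-fold higher, and *Actg2* (43.6-fold), *Tpm2* (11.8-fold), smooth muscle myosin *Myh11* (9.71-fold), *Lmod1* (at least 6.5-fold) and desmin (*Des*, 6.79-fold) were higher too. *Mcam*, the adhesion molecule CD146 of endothelium and pericytes, was 29.6-fold higher in BECs, and *Rgs4* and *Higd1b* were 3.89-fold and 3.47-fold higher there. *Rgs5* had 9.50, 9.47 and 10.13 in FRCs and 8.63, 11.16 and 10.07 in BECs (log2 -0.25, adjusted p = 0.796). Without FRC replicate 1 and BEC replicate 2, 13 of the 24 were higher in FRCs and 1 in BECs. *Higd1b* was not called without BEC replicate 2, at a difference of -1.02 (adjusted p = 0.118 in limma).

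Of 31 mesenchymal transcription factors, 15 were higher in FRCs and 1 in BECs. The largest differences were those of the odd-skipped factor *Osr2* (14.00, 14.02 and 13.57 in FRCs and 6.57, 8.73 and 7.36 in BECs, 79.3-fold), *Twist2* (69.4-fold), the hedgehog effector *Gli2* (42.2-fold), *Osr1* (33.4-fold), *Prrx1* (25.9-fold) and *Twist1* (22.5-fold). *Meox1* was the 1 member higher in BECs, by 10.1-fold. The 15 members not called included *Tcf4* at -0.34, *Snai2* at 0.22 and *Zeb1* at -0.29.

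Endothelial transcription factors were mostly BEC-high. Of 28 tested, 22 were higher in BECs and none in FRCs, with a median difference of -2.50. The SoxF factors *Sox17* (7.42, 5.14 and 5.64 in FRCs and 13.15, 13.00 and 12.93 in BECs), *Sox7* and *Sox18* (62.5-fold), which share roles in vessel specification, were among the highest differences, together with *Gata2* (102-fold), *Tcf15* (73.1-fold), *Bcl6b* (43.7-fold) and the blood vessel regulator *Tal1* (at least 24.2-fold). Of the ETS family, *Fli1* was at least 30.7-fold higher in BECs and *Ets1* 7.27-fold, whereas *Erg* (at least 1.75-fold, 5.50, 5.42 and 5.09 in FRCs and 6.25, 6.0 and 6.90 in BECs) had a weak probe. The 6 not called were *Klf2* (-0.41) and *Klf4* (-0.14), the flow-responsive factors, *Nr2f2* (0.78), the venous factor COUP-TFII, the ETS family members *Ets2* (-0.95) and *Etv6* (-0.78), and *Hey2* (-0.72). *Erg* was not called without FRC replicate 3 or BEC replicate 3, at a difference of -0.92 to -0.79 (adjusted p = 0.0108 to 0.0159 in limma).

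Endothelial junction and surface genes were mostly BEC-high too. Of 38 tested, 33 were higher in BECs and none in FRCs, and the median difference was -5.17. The junction proteins *Cdh5* (85.7-fold), *Esam* (42.8-fold) and *Cldn5* (39.6-fold), the receptor tyrosine kinase *Tie1* (6.56, 5.51 and 6.13 in FRCs and 11.89, 12.89 and 12.57 in BECs), the sialomucin *Emcn* (90.4-fold), *Icam2* (81-fold), *Rasip1* (76.4-fold) and *Egfl7* (44.5-fold) were among them. Fenestral diaphragm protein *Plvap* had 12.26, 11.85 and 12.44 in FRCs and 15.73, 15.45 and 15.68 in BECs, a smaller difference of -3.44. The 5 that were not called were *Kdr*, *Cd34*, *Ace*, *Ramp2* and *Cgnl1*, at differences of -0.39, -0.34, -0.38, -0.76 and 0.01.

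Promoters of these genes are shown because the group moved together and ETS factors, which bind around a GGAA core, are known regulators of endothelial genes. The letters AGGAAG on either strand were sought in RefSeq windows from 250 bases before to 50 bases after each start (GRCm38.p6). They were found in 35.4% of all 32851 promoters, in 33.4% of those of the genes tested, in 36.7% of those of genes higher in BECs and in 32.6% of those of genes higher in FRCs, and in 14 of 26 promoters (53.8%) of the 22 junction and surface genes that matched. The 250 bases before the start are given, 5′ to 3′ on the strand of the gene, with matches in capitals, for the 3 called members with the largest difference that hold a match there. This choice used a single window of each gene, the one lowest in coordinate, and left out genes of a single chromosome. *Adgrl4* lies at chr3:151437632-151437881 (plus strand), *Robo4* at chr9:37401722-37401971 (plus strand) and *Emcn* at chr3:137340828-137341077 (plus strand).
Adgrl4: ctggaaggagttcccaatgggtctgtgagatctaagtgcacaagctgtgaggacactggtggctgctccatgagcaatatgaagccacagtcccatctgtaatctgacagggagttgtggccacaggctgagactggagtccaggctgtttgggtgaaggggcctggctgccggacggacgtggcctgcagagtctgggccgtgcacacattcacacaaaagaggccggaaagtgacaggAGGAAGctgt
Robo4: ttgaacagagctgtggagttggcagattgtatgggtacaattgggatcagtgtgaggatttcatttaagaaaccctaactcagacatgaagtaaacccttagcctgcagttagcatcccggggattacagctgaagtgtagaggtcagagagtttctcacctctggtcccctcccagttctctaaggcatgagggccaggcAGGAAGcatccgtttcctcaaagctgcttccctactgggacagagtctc
Emcn: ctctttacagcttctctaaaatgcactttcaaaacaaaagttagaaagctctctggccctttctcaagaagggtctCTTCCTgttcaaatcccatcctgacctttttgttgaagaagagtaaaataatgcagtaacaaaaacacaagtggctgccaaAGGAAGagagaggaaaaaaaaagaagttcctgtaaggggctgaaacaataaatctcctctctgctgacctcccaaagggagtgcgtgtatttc
The match in *Adgrl4* begins 10 bases before the start, that in *Robo4* 49 bases before it, and those in *Emcn* 174 and 93 bases before it. A match is a description of letters and not a bound site.

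For the contractile genes the letters GGAATG, the core of the motif of TEAD factors, which act with YAP, were sought in the same way, and a match to these letters and one to AGGAAG can share at most an end base. They were found in 14.7% of all promoters, 14.8% of those of genes higher in FRCs, 15.4% of those of genes higher in BECs and 7 of 20 promoters (35%) of 19 contractile and pericyte genes, against 2 of 26 (7.69%) of the junction and surface genes. *Acta2* at chr19:34255374-34255623 (minus strand) and *Lmod1* at chr1:135324563-135324812 (plus strand) are, among the same choice of windows, the called members with the largest difference that hold a match before the start.
Acta2: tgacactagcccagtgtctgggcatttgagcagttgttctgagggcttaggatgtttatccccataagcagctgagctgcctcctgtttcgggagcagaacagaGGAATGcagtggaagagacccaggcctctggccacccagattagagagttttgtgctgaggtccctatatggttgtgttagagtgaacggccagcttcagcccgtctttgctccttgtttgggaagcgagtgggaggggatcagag
Lmod1: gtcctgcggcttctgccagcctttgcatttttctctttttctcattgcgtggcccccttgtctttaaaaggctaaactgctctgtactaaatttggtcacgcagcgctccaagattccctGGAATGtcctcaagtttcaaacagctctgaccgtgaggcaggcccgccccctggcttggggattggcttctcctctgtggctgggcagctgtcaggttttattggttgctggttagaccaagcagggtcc
The matches begin 146 bases before the start in *Acta2* and 130 bases before it in *Lmod1*.

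HEV and L-selectin ligand genes were mostly BEC-high. Of 26 tested, 16 were higher in BECs and 1, *Il33*, in FRCs. *Chst4* was at least 27.9-fold higher in BECs, and BEC replicate 2, with 8.95, lay below the other BEC replicates. *Fut7* (16.2-fold), the fucosyltransferase that makes the sialyl Lewis x part of the ligand, had 5.78, 5.57 and 5.63 in FRCs and 10.22, 8.52 and 10.27 in BECs. *B3gnt3* (17.5-fold), *Chst2* (4.2-fold) and *Gcnt1* (3.73-fold), which extend, sulfate and branch the same sugars, were higher as well. *Podxl* (32.6-fold) is a mucin that carries them, and *Sncg* (29.2-fold) and the chemokine carrier *Ackr1* (7.15-fold) mark venules and HEVs. *Glycam1* itself differed by 8.97-fold (log2 -3.16, SE 0.61, adjusted p = 0.000273 in limma). *Glycam1* was also at a mean of 14.93 in LECs and 12.89 in DN cells. *Gcnt1* was not called without FRC replicate 2 or 3 or BEC replicate 1 or 3, at a difference of -1.83 to -1.57 (adjusted p = 0.0798 to 0.125 in limma).

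Of 25 leukocyte adhesion molecules, 16 were higher in BECs and 2 in FRCs. P-selectin (*Selp*, 39.5-fold) and E-selectin (*Sele*, 34.9-fold) capture rolling leukocytes, and *Sele* had 6.11, 5.91 and 6.66 in FRCs and 11.20, 11.01 and 11.84 in BECs. *Icam1*, the integrin ligand of firm arrest, was 2.49-fold higher in BECs and *Madcam1* 4.77-fold, and *Cd200*, an inhibitory ligand for myeloid cells, 15.2-fold. *Vcam1*, the other integrin ligand, had 12.32, 12.67 and 13.36 in FRCs and 12.80, 11.93 and 13.08 in BECs and was not called (log2 0.18, SE 0.72, adjusted p = 0.879). The hyaluronan receptor *Cd44* (8.97-fold) and the amine oxidase VAP-1 (*Aoc3*, 5.45-fold) were the exceptions, higher in FRCs. *Icam1* was not called without FRC replicate 1 or 2 or BEC replicate 1 or 3, at a difference of -1.29 to -1.15 (adjusted p = 0.0626 to 0.0932 in limma).

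Of 19 genes that the study used to name BEC subsets in single cells, 16 were higher in BECs and none in FRCs. The study uses *Sox17*, *Gja4* (8.23-fold) and *Rbp7* for arterial cells, *Vwf* (24.7-fold) and *Lrg1* (11.6-fold) for veins, *Ramp3* (22.7-fold), *Ly6c1* (4.91-fold), *Rgcc* (4.63-fold) and *Aplnr* for capillaries, *Esm1* and *Cxcr4* (4.25-fold) for tip cells, *Hey1* for stalk cells, *Flt1* (60.2-fold) and *Cd36* (at least 1.71-fold) for quiescent cells, and *Glycam1* and *Chst4* for HEVs. *Il6st*, *Jag1* and *Col4a1*, at -0.90, 0.27 and -0.15, were not called. *Cxcr4* was not called when any 1 of the 6 replicates was left out, at a difference of -2.26 to -1.90 (adjusted p = 0.0619 to 0.126 in limma).

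Genes of vessel function beyond adhesion were BEC-high in part. Of 19 hemostasis genes, 8 were higher in BECs, led by the clotting factor *F8* (34.3-fold), *Vwf* and the thrombin receptors *F2rl3* (12.3-fold) and *F2r* (2.75-fold), the urokinase receptor *Plaur* (5.24-fold) and thrombomodulin (*Thbd*, 2.12-fold), and 3 in FRCs, namely the plasminogen activators *Plat* (4.05-fold) and *Plau* (3.8-fold) and *Gp1bb* (at least 3.01-fold). The count of 8 was 5 without BEC replicate 1. Of 13 caveolae and transcytosis genes, 8 were higher in BECs and none in FRCs, among them *Cav1* (4.88-fold), *Cav2* (11.2-fold), *Cavin2* (8.05-fold), *Ehd4* (8.92-fold) and the water channel *Aqp1* (7.16-fold). Of 15 fatty acid handling genes, 7 were higher in BECs and 3 in FRCs. An enzyme and its carrier lay on opposite sides, since lipoprotein lipase (*Lpl*) was 7.16-fold higher in FRCs, with 15.86, 16.00 and 15.78 in FRCs and 12.49, 14.10 and 12.54 in BECs, while *Gpihbp1*, which holds this enzyme on capillaries, had 9.34, 6.11 and 6.66 and 14.02, 14.55 and 13.82. *Scarb1* (at least 32.4-fold), *Fabp5* (at least 9.9-fold) and the transporter *Slc27a3* (3.43-fold) were BEC-high, and the lipoprotein receptor *Vldlr* (8.99-fold) and the transporter *Slc27a1* (5.39-fold) FRC-high. *Thbd* was not called without FRC replicate 1, 2 or 3 or BEC replicate 1 or 2, at a difference of -1.09 to -0.98 (adjusted p = 0.078 to 0.105 in limma).

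Some growth factors and their receptors lay on opposite sides of the comparison. Of 10 VEGF genes, 2 were higher in FRCs, 4 in BECs and 4 were not called. The ligands *Vegfd* (at least 54.3-fold, 11.67, 11.82 and 10.59 in FRCs and 5.34, 5.61 and 5.61 in BECs) and *Vegfa* (4.43-fold) were higher in FRCs, and the receptors *Flt1*, *Nrp1* (2.88-fold), *Nrp2* (6.92-fold) and *Flt4* (at least 2.49-fold) higher in BECs. *Flt4* and *Nrp2* are LEC markers too, with *Flt4* at a mean of 9.08 in LECs and 6.95 in BECs, and the part of LEC signal was not tested. The ligands *Vegfb* (0.69), *Vegfc* (0.61) and *Pgf* (0.89) and the receptor *Kdr* (-0.39) were not called. Of the TIE system, *Tie1*, *Tek* (5.04-fold) and the TIE2 phosphatase *Ptprb* (46-fold) were BEC-high, while the ligands *Angpt1* and *Angpt2* differed by 0.92 and -0.39 (adjusted p = 0.0132 and 0.461) and were not called, and the related *Angptl1* was at least 16.4-fold higher in FRCs. *Nrp1* was not called when any 1 of the 6 replicates was left out, at a difference of -1.65 to -1.46 (adjusted p = 0.0682 to 0.114 in limma).

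For PDGF-B the sides were exchanged. *Pdgfb*, by which endothelium recruits mural cells, had 9.43, 9.03 and 9.88 in FRCs and 13.74, 13.95 and 13.66 in BECs, 20.2-fold higher in BECs. Its receptor *Pdgfrb* had 10.68, 11.09 and 10.92 in FRCs and 6.46, 9.59 and 7.50 in BECs, and *Pdgfra* was 115-fold higher in FRCs. Among the BEC replicates, *Pdgfrb* was again highest in replicate 2. The ligands *Pdgfa* (2.24-fold) and *Pdgfc* (7.09-fold) and the receptor-like *Pdgfrl* (at least 22.7-fold) were FRC-high.

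Notch signaling genes were more often BEC-high than FRC-high, with 9 of 18 higher in BECs and 2 in FRCs (1 without BEC replicate 1 or BEC replicate 3). The ligand *Dll4* had 5.66, 5.41 and 6.01 in FRCs and 10.48, 10.16 and 10.76 in BECs. *Notch4* (49.1-fold), *Notch1* (4.07-fold), the ligands *Dll1* (7.03-fold) and *Jag2* (5.11-fold), the feedback gene *Nrarp* (41.4-fold), the glycosyltransferase *Mfng* (80.9-fold) and the target *Hey1* (8.03-fold) shared the direction. *Notch3*, the receptor of mural cells, had 9.39, 9.78 and 10.61 and 8.05, 10.99 and 9.12 and was not called (adjusted p = 0.533), and *Dlk1* (5.24-fold) and *Heyl* (2.05-fold) were FRC-high. *Heyl* was not called without BEC replicate 1 or 3, at a difference of 0.77 to 0.96 (adjusted p = 0.0344 to 0.0627 in limma).

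**Figure D4:**
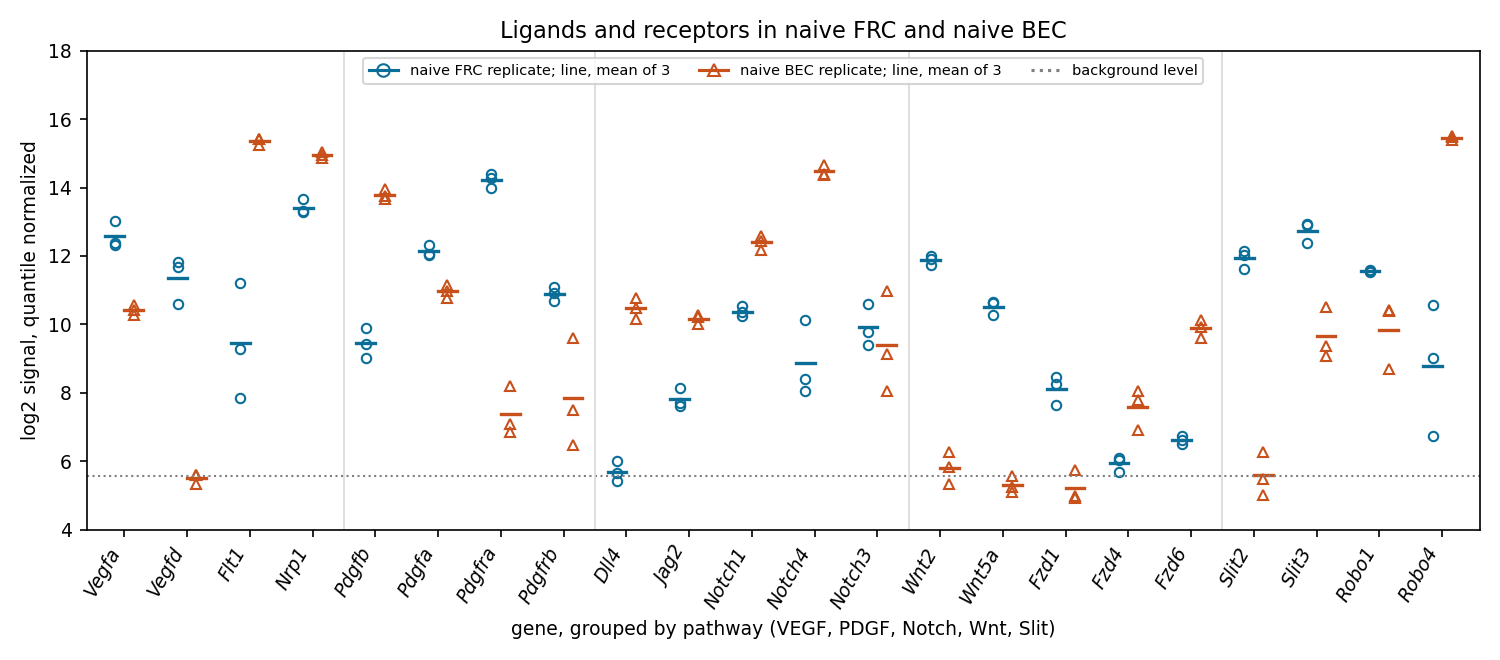
Log2 signal of ligands and receptors of 5 pathways in the 3 naive FRC replicates (circles) and the 3 naive BEC replicates (triangles), with means as short lines and the background level of 5.57 dotted. Of the genes shown, *Vegfa* and *Vegfd* are higher in FRCs and *Flt1* and *Nrp1* in BECs. *Pdgfb* is higher in BECs and *Pdgfa* and the PDGF receptors in FRCs. *Dll4*, *Jag2*, *Notch1* and *Notch4* are higher in BECs while *Notch3* overlaps. *Slit2*, *Slit3* and *Robo1* are higher in FRCs while *Robo4* is higher in BECs.

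Of 31 Wnt genes, 19 were higher in FRCs and 2 in BECs (median 1.54). *Wnt2* (11.92, 11.99 and 11.73 in FRCs and 6.27, 5.84 and 5.33 in BECs) and *Wnt5a* (at least 30.9-fold) are ligands, *Dkk3* (50.7-fold), *Sfrp2* (at least 45.6-fold) and *Sfrp1* (20.1-fold) secreted antagonists or their relatives, *Rspo3* (18.7-fold) an enhancer of Wnt signaling, and *Fzd2* (at least 15.5-fold) a receptor. The exceptions were the receptors *Fzd6* (9.63-fold) and *Fzd4* (3.12-fold), higher in BECs. Of 28 BMP and TGF-beta genes, 11 were FRC-high and 5 BEC-high. Secreted antagonists led the former, namely follistatin (*Fst*, 85.3-fold), *Bmper* (80.6-fold), chordin (*Chrd*, at least 58.2-fold) and *Grem1*, with the receptor *Bmpr1a* (20.4-fold) and the ligand *Bmp3* (at least 10.8-fold) also FRC-high. The endothelial coreceptor *Eng* (8.47-fold), its partner *Acvrl1* (4.33-fold), the target *Id1* (9.48-fold) and the ligands *Tgfb1* (6.26-fold) and *Bmp6* (at least 2.87-fold) were BEC-high.

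Guidance genes divided. Of 37 semaphorin, ephrin, slit and netrin genes, 10 were higher in FRCs and 14 in BECs. The repellent *Slit2* had 12.03, 12.16 and 11.61 in FRCs and 5.48, 6.28 and 5.0 in BECs and *Slit3* was 8.47-fold higher in FRCs, as were *Epha3* (at least 55.1-fold), *Sema3b* (20.8-fold), *Efna5* (11.3-fold) and *Epha7* (at least 3.09-fold). On the BEC side, *Sema7a* (20.2-fold), *Sema3g* (15-fold), *Sema6b* (12.8-fold), *Sema3f* (10.5-fold) and *Efna1* (9.18-fold) followed *Robo4*. The related receptor *Robo1* was called higher in FRCs, on the side of *Slit2* and *Slit3*. The arterial and venous pair *Efnb2* (8.07-fold) and *Ephb4* (2.35-fold) was higher in BECs. Of 10 IGF genes, 5 were FRC-high, namely *Igf1* (5.08-fold), *Igfbp2* (at least 33.4-fold), *Igfbp5* (14-fold) and *Igfbp4* (4.09-fold) besides *Igfbp6*, and none BEC-high. Integrins were near even, with 5 of 18 higher in FRCs, led by the collagen receptor chain *Itga11* (13.19, 13.07 and 12.49 in FRCs and 5.72, 6.25 and 5.47 in BECs) with *Itgb6* (at least 3.98-fold), *Itgb5* (3.3-fold), *Itga2b* and *Itga8* (2.14-fold), and 4 in BECs, namely *Itga1* (6.14-fold), *Itga6* (6.01-fold), *Itga2* (3.4-fold) and *Itga3* (2.28-fold). Without FRC replicate 2 the count for FRCs was 3. *Igf1* was not called without FRC replicate 1 or BEC replicate 3, at a difference of 2.05 to 2.28 (adjusted p = 0.0501 to 0.074 in limma). *Itga8* was not called without FRC replicate 2, at a difference of 0.89 (adjusted p = 0.0455 in limma). *Itga2* was not called without FRC replicate 1 or 2 or BEC replicate 1 or 3, at a difference of -1.60 to -1.24 (adjusted p = 0.0588 to 0.11 in limma).

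Hox genes, which record position along the body axis, split in part by cluster. Of 25 tested, 13 were higher in BECs and 4 in FRCs. The genes higher in BECs were of the HoxA, HoxB and HoxD clusters, such as *Hoxd10* (16.8-fold), *Hoxb5* (10.3-fold), *Hoxd4* (5.86-fold), *Hoxd9* (4.59-fold), *Hoxb6* (4.53-fold) and *Hoxd8* (4.33-fold). Those higher in FRCs were *Hoxc9* (11.43, 11.33 and 10.82 in FRCs and 5.20, 6.63 and 6.04 in BECs), *Hoxc6* (20.1-fold), *Hoxc10* (15.4-fold) and *Hoxa9* (at least 1.87-fold). The other HoxC genes tested, *Hoxc4* and *Hoxc8*, stayed near background and were not called. *Hoxa9* was not called without FRC replicate 1, at a difference of 0.97 (adjusted p = 0.00244 in limma).

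Complement genes were FRC-high where they were called, with 7 of 18 higher in FRCs and none in BECs. *C4b* (48-fold), *C4a* (69.1-fold), *C1s1* (11-fold), *C2* (9.04-fold) and the inhibitor *Serping1* (18.7-fold) belong to the classical pathway, and *Colec12* (at least 4.49-fold) is a collectin. *C4a* and *C4b* are near-identical, so their probes may share signal. Of 12 nitric oxide and prostaglandin genes, 6 were FRC-high and 3 BEC-high. Prostacyclin synthase *Ptgis* (12.65, 12.75 and 12.74 in FRCs and 5.35, 6.33 and 6.29 in BECs), *Ptges* (14.2-fold), the degrading enzyme *Hpgd* (at least 19.1-fold) and the neuronal synthase *Nos1* (at least 6.21-fold) were higher in FRCs. So were both subunits of the nitric oxide receptor, *Gucy1a1* (4.24-fold) and *Gucy1b1* (3.11-fold), whereas the endothelial synthase *Nos3* was 66.8-fold higher in BECs, with 6.62, 5.32 and 6.96 in FRCs and 12.11, 12.59 and 12.38 in BECs. The prostaglandin D synthase *Ptgds* (at least 8.06-fold) and the inducible *Nos2* (at least 2.03-fold) were also BEC-high.

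Immune response genes leaned toward BECs. Of 24 interferon response genes, 11 were higher in BECs and none in FRCs (median -1.04), with *Rsad2* at 10.5-fold, *Irf7* at 5.19-fold, *Ifit2* at 4.14-fold, *Igtp* at 3.89-fold, *Isg15* at 3.71-fold and *Ifi35* at 3.25-fold. Of 16 MHC class I and processing genes, 8 were higher in BECs and none in FRCs, including the regulator *Nlrc5* (5.52-fold), the immunoproteasome subunits *Psmb9* (4.61-fold) and *Psmb8* (3.83-fold), the transporter *Tap1* (3.04-fold), *H2-K1* (2.68-fold) and *H2-T23* (2.42-fold), while *B2m*, at 15.31 ± 0.05 in FRCs and 15.86 ± 0.09 in BECs, differed by -0.55 (adjusted p = 0.0136). Of 10 MHC class II genes, 5 were higher in BECs, namely *H2-Aa* (7.09-fold), *H2-Ob* (at least 4.7-fold), *H2-Eb1* (4.22-fold), *H2-DMa* (3.22-fold) and the invariant chain *Cd74* (4.87-fold, 9.99, 9.77 and 10.66 in FRCs and 12.95, 11.46 and 12.87 in BECs). This count fell to 2 without FRC replicate 2 or without BEC replicate 1. Leukocyte markers moved the same way, with 3 of 11 higher in BECs, namely *Lcp1* (10.0-fold), *Coro1a* (6.84-fold) and *Cd52*, and a median level over the list of 5.98, 5.91 and 5.81 in FRCs and of 7.67, 8.33 and 7.66 in BECs, and the part of leukocytes in the class II signal was not tested. *H2-Ob* was not called without FRC replicate 2 or 3 or BEC replicate 1 or 3, at a difference of -2.49 to -2.11 (adjusted p = 0.0571 to 0.102 in limma). *H2-Eb1* was not called without FRC replicate 2 or BEC replicate 1, at a difference of -1.87 to -1.81 (adjusted p = 0.0672 to 0.0736 in limma). *H2-DMa* was not called without FRC replicate 1 or 2 or BEC replicate 1 or 3, at a difference of -1.66 to -1.46 (adjusted p = 0.0648 to 0.0984 in limma).

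Of 23 lymphotoxin and TNF receptor genes, 9 were BEC-high and none FRC-high, led by *Traf1* (10.5-fold), RANK (*Tnfrsf11a*, 4.99-fold), *Rel* (3.48-fold), *Tnfrsf1b* (3.47-fold), *Cd40* (2.86-fold) and *Tnfaip3* (2.78-fold). The count was 6 without BEC replicate 1 or BEC replicate 3. The noncanonical NF-κB members *Map3k14* and *Relb* differed by -0.10 and -0.75 and were not called, as *Ltbr* was not. Immediate early genes, which tissue digestion is known to induce, were in part high in both cell types. *Fos* had 15.06 ± 0.04 in FRCs and 14.95 ± 0.16 in BECs and *Egr1* 15.57 ± 0.05 and 15.43 ± 0.10 (SD, n = 3 each). Of 18 tested 4 were higher in BECs, namely *Ier2* (3.17-fold), *Nr4a2* (2.65-fold), *Ier3* (2.44-fold) and *Fosl2* (2.2-fold), and 1, *Egr2* (2.89-fold), in FRCs. Of 23 cell cycle genes, 4 replication genes, *Mcm3* (5.86-fold), *Pcna* (3.08-fold), *Mcm2* (2.34-fold) and *Tyms* (2.12-fold), were higher in BECs, where 11.2% of all genes were. The other 19, which include further replication genes and mitotic genes such as *Cdk1* (-0.57), were not called. Of 19 housekeeping genes, only *Hprt* (2.07-fold) was called, higher in BECs, and *Actb* differed by -0.01. *Rel* was not called without BEC replicate 1, at a difference of -1.51 (adjusted p = 0.0597 in limma). *Tnfaip3* was not called without BEC replicate 1 or 3, at a difference of -1.27 (adjusted p = 0.0591 to 0.0604 in limma). *Ier2* was not called without FRC replicate 1 or 2 or BEC replicate 2 or 3, at a difference of -1.71 to -1.22 (adjusted p = 0.0734 to 0.18 in limma). *Mcm2* was not called without FRC replicate 1 or 2 or BEC replicate 1, 2 or 3, at a difference of -1.28 to -0.95 (adjusted p = 0.061 to 0.154 in limma). *Hprt* was not called without FRC replicate 1 or BEC replicate 1, at a difference of -0.98 to -0.96 (adjusted p = 0.00189 to 0.00214 in limma).

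Markers of some other cell types were also unequal. Of 9 epithelial and Schwann cell markers, 7 were higher in FRCs and 1 in BECs, with the keratins *Krt14* (14.63, 14.83 and 14.90 in FRCs and 7.18, 10.39 and 6.96 in BECs), *Krt5* (at least 19.9-fold), *Krt8* (5.15-fold), *Cdh1* (7.33-fold), the Schwann cell factor *Sox10* (18.8-fold) and *Ngfr* (18.4-fold), against *Pmp2* (at least 2.5-fold) in BECs, while *Epcam* had no group mean above background. The median level of the tested members was 10.62, 10.54 and 11.19 in FRCs and 6.72, 8.86 and 6.78 in BECs. Of 5 red cell markers, *Alas2*, *Hba-a1* and *Hbb-bt* (5.2-fold) were higher in BECs (3 of 5, median level 7.37, 6.05 and 6.09 in FRCs and 9.96, 8.45 and 8.75 in BECs), and without FRC replicate 2 the count was 1. Of 6 adipocyte markers, 4 were higher in BECs, including *Fabp4* (at least 2.53-fold) and *Pparg* (3.69-fold), which capillary endothelium also expresses, *Cidec* (at least 2.37-fold) and *Adipoq* (5.65-fold), and *Plin4* (3.71-fold) was higher in FRCs. Of 12 pancreatic enzyme genes none was called in either direction (limma, adjusted p), and *Amy2a5* had 15.87 ± 0.07 in FRCs and 15.48 ± 0.50 in BECs (SD, n = 3 each). Of 7 T cell markers *Thy1*, which fibroblasts also express, was higher in FRCs, and of 8 B cell markers *Fcmr* (10.0-fold) was higher in BECs. Of 12 myeloid markers *Aif1* (3.72-fold) was higher in FRCs and *Fcer1g* (10.3-fold) and *Mrc1* (at least 4.53-fold) in BECs, while *Cd14* differed by -0.37 (adjusted p = 0.582 in limma). Over all genes, 13.7% were higher in FRCs and 11.2% in BECs. The few calls among the T cell, B cell and myeloid markers are therefore no finding about these lists. *Hbb-bt* was not called without FRC replicate 2, at a difference of -1.78 (adjusted p = 0.0594 in limma). *Adipoq* was not called without BEC replicate 2, at a difference of -2.0 (adjusted p = 0.0673 in limma). *Aif1* was not called without FRC replicate 3, at a difference of 1.48 (adjusted p = 0.0655 in limma).

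The nearest other sorted populations were set beside the leading genes. These tests share the FRC or BEC replicates by which the genes were chosen. All 15 leading FRC genes were also called higher in FRCs than in DN cells, where 10.8% of all genes were, with differences from 2.27 to 6.48. The largest was that of *Lrrc15*, with a mean of 6.71 in DN cells against 13.18 in FRCs. Of the 15 leading BEC genes, 10 were called higher in BECs than in LECs, against 5.87% of all genes. *Aplnr* (BEC minus LEC 4.36, adjusted p = 0.000223 in limma), *Car4* (3.59, adjusted p = 0.000763) and *Sox17* (3.31, adjusted p = 0.00163) differed most. *Adgrl4*, *Pecam1*, *Sox7*, *Grrp1* and *Robo4* were not called against LECs.

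**Figure D5:**
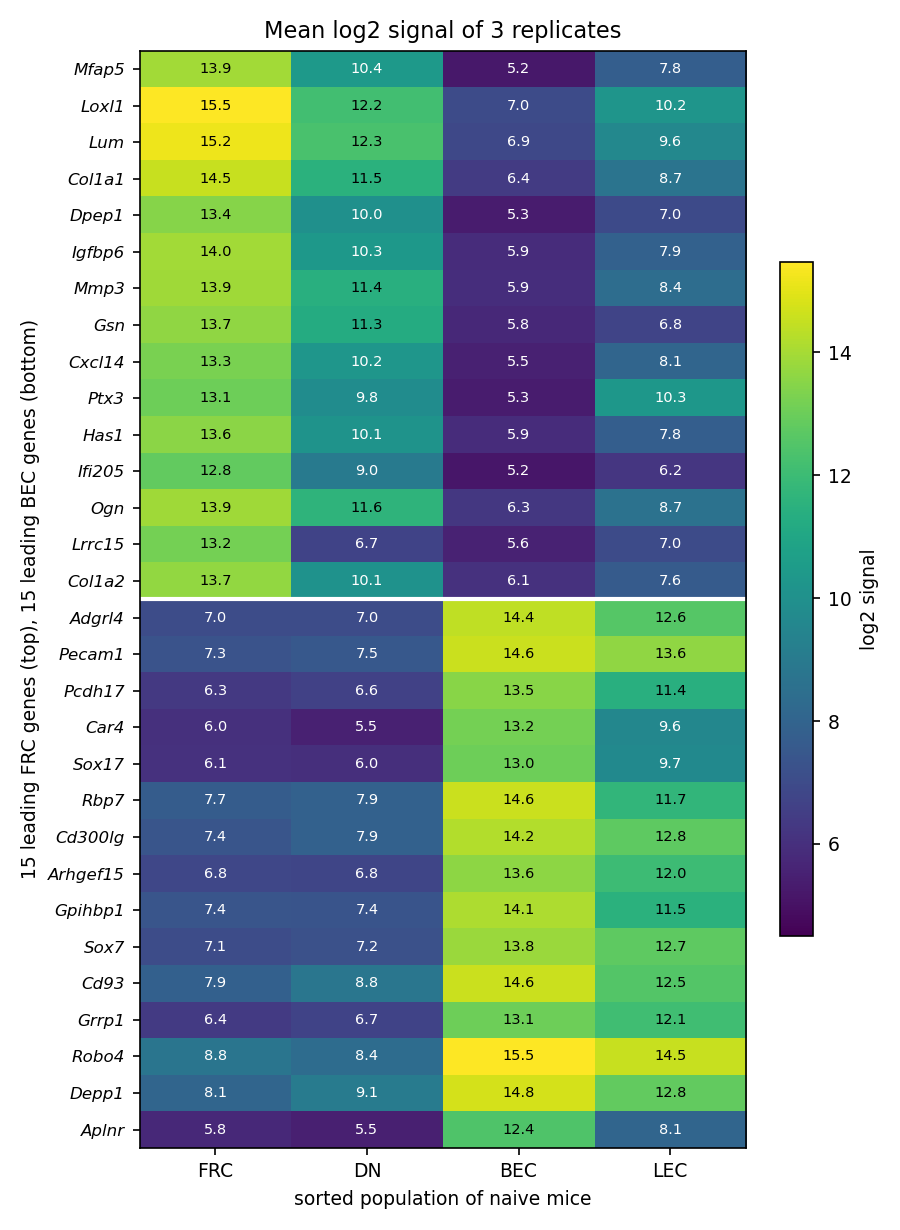
Mean log2 signal (color and number) of the 15 genes with the largest difference toward FRCs (upper rows) and the 15 with the largest toward BECs (lower rows) in the 4 sorted populations of naive mice, 3 replicates each. The upper genes have their highest mean in FRCs and, except for *Ptx3* and *Lrrc15*, the next highest in DN cells, and the lower genes have their highest mean in BECs and the next highest in LECs.

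The same contrast in mice with lymphoma used other replicates on the same slides. There 11.5% of all genes were higher in FRCs and 8.48% higher in BECs. Of the 1826 genes higher in FRCs of naive mice, 1293 were also called higher in FRCs of mice with tumor and 2 were called higher in BECs. Of the 1490 genes higher in BECs, 923 were again higher in BECs and 4 were higher in FRCs. The 15 leading FRC genes differed by 5.27 to 6.29 in mice with tumor, compared with 7.61 to 8.74 in naive mice, and the 15 leading BEC genes by -8.17 to -6.15, compared with -7.39 to -6.67. Both sets were picked for the largest differences in naive mice, which favors smaller ones in other replicates, so the shift is no finding. The test of the difference between both contrasts passed for 121 genes (0.906%), of which 14 are in the lists, and the latter count was from 6 (without FRC replicate 1) to 29 (without BEC replicate 2) when 1 naive replicate was left out, moving by over 1.5 times for each of the 6. *Gja4*, an arterial gap junction gene, differed by -3.04 in naive and -0.18 in tumor mice (change 2.86, SE 0.39, adjusted p = 0.00103 in limma). *Madcam1*, a vascular addressin, went from -2.25 to 0.48 (adjusted p = 0.0408) and *Col18a1* from 2.08 to 0.13 (adjusted p = 0.00493).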

How the data were processed

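Naive FRC and BEC arrays (3 replicates each, 2 strips per replicate) were taken from Illumina MouseWG-6 data. The authors deposited a table of log2 values for 48 strips, and how these were made is not given in the sources used here. The authors also deposited bead-level intensities, with 982785 to 1037466 beads on each of the 12 strips and a median of 21 to 22 beads per probe. The number of beads and of replicates limits precision. Against log2 mean bead intensity the deposited log2 values differed by a median of -1.78 for dim and -0.22 for bright probes.

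Values were quantile normalized over all strips, and strips of a replicate were averaged. The background level was 5.57 (mode 4.97 plus 3 robust SDs of 0.20). Probes above it in at least 1 group mean were kept, and the brightest kept probe stood for a gene (5503 genes had more than 1). Limma (version 3.58.1, R 4.3.3) fitted the 8 groups of 24 replicates together, with 16 residual degrees of freedom. A call needed an adjusted p under 0.05 (Benjamini-Hochberg) and a 2-fold difference. The fit was tested on simulated data. "At least" folds, for genes whose dimmer mean was below background, set each dimmer replicate below it at that level.

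Named are, of each list, the genes that the study names, up to 6 called genes with the largest difference in each direction, and members that go against the majority, and of all genes the 15 largest called differences in each direction without overlap. Other genes named were chosen after their values were seen. The comparison, its members and the lists were chosen with earlier results of these data known. Alternatives changed normalization, strips, samples in the fit, filter, probe choice, fold floor, test and source of values, and left out replicates. Leaving out FRC replicate 1 and BEC replicate 2 together, and all alternatives of the tests against LECs, DN cells and tumor mice, were chosen after seeing the data. Promoter sequences are from RefSeq (GRCm38.p6), and none of 2 sex-linked genes was called.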

Additional observations from a re-analysis of the deposited data

Results flagged for a closer look

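For 10 of the genes named above, the difference between FRCs and BECs itself differed between mice with lymphoma and naive mice (limma, interaction adjusted over all genes). Values are the tumor difference minus the naive difference on the log2 scale, and the naive replicates are those used in the comparison above. Many genes were named for large differences in these naive replicates, which favors changes toward a smaller difference, so the direction of the changes is no finding. *Srgn*, the granule proteoglycan serglycin, had the greatest such change among them, of 3.87 (SE 0.69, adjusted p = 0.0104), from -3.78 in naive to 0.10 in tumor mice. *Gja4* changed by 2.86 (adjusted p = 0.00103), *Madcam1* by 2.73 (adjusted p = 0.0408), the collagen-binding integrin chain *Itga1* by 2.22 (adjusted p = 0.00525) and the hyaluronan link protein *Hapln3* by 1.94 (adjusted p = 0.0218). These 5 genes were BEC-high in naive mice. The other 5 were FRC-high there and changed downward: the BMP antagonist *Chrd* by -2.46 (adjusted p = 0.0132), *Kera* by -2.25 (adjusted p = 0.00504), *Col18a1* by -1.95 (adjusted p = 0.00493), *Gp1bb* by -1.50 (adjusted p = 0.0408) and *Col24a1* by -1.23 (adjusted p = 0.0334). No naive BEC replicate lay above background for *Chrd*, *Kera*, *Gp1bb* and *Col24a1*, so their changes rest on a naive BEC level that was not measured above background. Naive and tumor arrays of a cell type shared a slide, with naive replicates at places A to C and tumor replicates at places D to F.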

How the results depend on the processing

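None of the 3316 calls between naive FRCs and naive BECs was called in the opposite direction under the 26 alternatives, and none of the 401 named genes reversed. At most 3 of the calls (with the mean of all kept probes) changed sign, and these were then not called. Of the 351 called named genes, 263 kept the call under every alternative. The number of genes higher in FRCs (1826) was 986 with a 4-fold floor. The number higher in BECs (1490) was 627 with that floor and 2712 on the adjusted p alone, where 2715 were higher in FRCs. Leaving out 1 replicate gave 1690 to 1823 genes higher in FRCs, or 1915 without BEC replicate 2, and 1391 to 1527 higher in BECs. The naive replicate numbers were not used as pairs in the main fit. Same-numbered FRC and BEC replicates deviated together at correlations of 0.05, 0.02 and 0.18, against -0.13 to 0.10 for other pairs. These values cannot tell whether same-numbered pools share animals, because the labels do not say so and each group has only 3 replicates. With a replicate block, 1866 genes were higher in FRCs and 1548 in BECs. The bead files gave fewer calls, 1341 and 1091 from mean intensities and 1496 and 1184 after normexp correction. An unmoderated t-test of the 6 naive replicates gave 3161 and 3325 genes at an unadjusted threshold of 0.05 with no fold floor. It gave 1628 and 1392 after Benjamini-Hochberg adjustment with the 2-fold floor. The paper states no test for these arrays. The 450 calls among list members changed by less than 1.5 times under every alternative. The 14 list genes whose difference changed between naive and tumor mice were 8 with the second strip alone, 255 with array weights, and 6 to 29 when 1 naive replicate was left out; the cause was not tested. Dim probes limit the measurement, since the background level bounds folds toward genes below it.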
